A study of Mus musculus with 36 samples.

Results

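The genes described here are the axonemal dynein heavy chain genes (Dnah) and the genes named for cilia and flagella associated proteins (Cfap) in the mouse hippocampus. They are the protein-coding genes whose symbol, looked up by Ensembl identifier, begins with Dnah or Cfap and a number. The rule found 44 genes, 14 Dnah and 30 Cfap, among the 37315 genes of the count tables, and used no measured value. Of these, 39 passed the filter on low counts and were tested. The other 5, Cfap77, Cfap97d1, Cfap221, Cfap299 and Dnah14, were too low to test, and 2 further genes that fit the rule, Dnah7c and Cfap99, were not analysed here.

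The hippocampus of 6 inbred mouse strains was profiled by RNA sequencing, with 3 males and 3 females of each: the wild-derived PWD/Ph, the related DBA/2J and DBA/1J, and C57BL/6J, A/J and 129S1/SvImJ. All 36 libraries came from 1 untreated animal each and held both sides of the structure. The 2 sexes were the same age, 62 days, in DBA/2J and PWD/Ph. In A/J, DBA/1J and 129S1/SvImJ males were 62 and females 63 days old, and in C57BL/6J 63 and 64 days, so in these 4 strains sex and 1 day of age cannot be told apart. Only the PWD/Ph animals lived alone in a cage, so housing and strain cannot be told apart there. Males and females also received different spike-in mixes.

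A motile cilium beats because dynein motors, fixed in rows on its outer microtubule doublets, walk along the neighbouring doublet. The outer arms set the power of the beat, the inner arms its shape, and a central pair of microtubules with radial spokes regulates both. In the brain such cilia stand on ependymal cells, which line the ventricles. Cells of the choroid plexus, which secretes cerebrospinal fluid, also carry cilia, and whether these beat at the ages used was not examined here. Neurons and astrocytes carry a single primary cilium that lacks dynein arms. The transcription factor FOXJ1 and factors of the RFX family, which bind a motif called the X-box, turn on the genes of motile cilia.

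Promoter sequences were taken from RefSeq on GRCm38.p6, from 250 bases before to 50 bases after a start, and 36 of the 44 genes had 39 of them. The RFX half-site GTTGCC, searched on both strands, was in 14 of these 39 promoters (35.9%), against 12.5% of the table's 32851 promoters. The full X-box, a looser pair of half-sites up to 3 bases apart whose matches partly overlap those of the half-site, was in 4 (10.3%), against 1.53% of all. The forkhead core TGTTTAC, the kind of letters FOXJ1 binds, was in 3 (7.69%), against 3.65%. The X-box stretches are shown because they are the closest matches to an RFX site in the set, with the matched letters in capitals, 5′ to 3′ on the gene's strand. Cfap298 has 2 of them, in chr16:90934882-90934941 and chr16:90935001-90935060 on the minus strand. The others lie in chr16:44394749-44394808 (Cfap44), chr1:172521088-172521147 (Cfap45) and chr19:47937629-47937688 (Cfap58), all on the plus strand.
Cfap298, nearer site: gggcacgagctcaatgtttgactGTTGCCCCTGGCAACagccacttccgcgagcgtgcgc
Cfap298, farther site: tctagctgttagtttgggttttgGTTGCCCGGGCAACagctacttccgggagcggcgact
Cfap44: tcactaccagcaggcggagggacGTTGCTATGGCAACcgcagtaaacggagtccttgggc
Cfap45: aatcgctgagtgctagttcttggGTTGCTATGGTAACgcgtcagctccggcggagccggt
Cfap58: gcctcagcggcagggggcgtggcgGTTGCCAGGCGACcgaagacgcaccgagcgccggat
Dnah7a and Dnah7b, whose transcripts share part of their sequence, each hold a half-site. They lie in chr1:53706952-53707011 on the minus strand and chr1:46066663-46066722 on the plus strand. These are shown because both genes appear in the strain results.
Dnah7a: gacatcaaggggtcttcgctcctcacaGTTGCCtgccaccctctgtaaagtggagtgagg
Dnah7b: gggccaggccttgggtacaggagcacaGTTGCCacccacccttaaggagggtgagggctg
Cfap43, one of the 3 genes with a forkhead core and the gene whose libraries spread most, has it, as the reverse complement, in chr19:47837384-47837443 on the minus strand.
Cfap43: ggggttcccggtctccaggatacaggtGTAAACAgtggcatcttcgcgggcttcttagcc
A match describes these letters only and is not evidence of binding.

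Levels per gene length, in FPKM (fragments scaled to transcript length and library size), fell into a few high Cfap genes and a long low tail. Cfap36, which codes for a partner of the small GTPase ARL3, was highest at 43.5 ± 6.85 FPKM (SD, n = 36). Cfap298, a factor that helps assemble dynein arms in the cytoplasm, followed at 16.6 ± 2.95 FPKM. Cfap20, a protein of the inner junction between the microtubules of a doublet, stood at 14.5 ± 2.89 FPKM. Next came Cfap97 at 6.91 ± 1.08 FPKM. These 4 genes had the only means above 5 FPKM. Another 12 lay between 1 and 5 FPKM, and 28 lay under 1 FPKM.

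Among the Dnah genes only Dnah9, an outer arm motor of airway and ependymal cilia, exceeded 1 FPKM, at 2.47 ± 0.607. The inner arm motors Dnah3 and Dnah7a were near the bottom, at 0.131 ± 0.0368 and 0.126 ± 0.0511 FPKM. Dnah14 had 0.0661 ± 0.0559 FPKM and at most 5 reads in any library. Cfap97d1 was lowest at 0.0179 ± 0.0483 FPKM, with at most 2 reads in any library. Between 37 and 44 of the 44 genes had at least 1 read in each library.

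**Figure D1:**
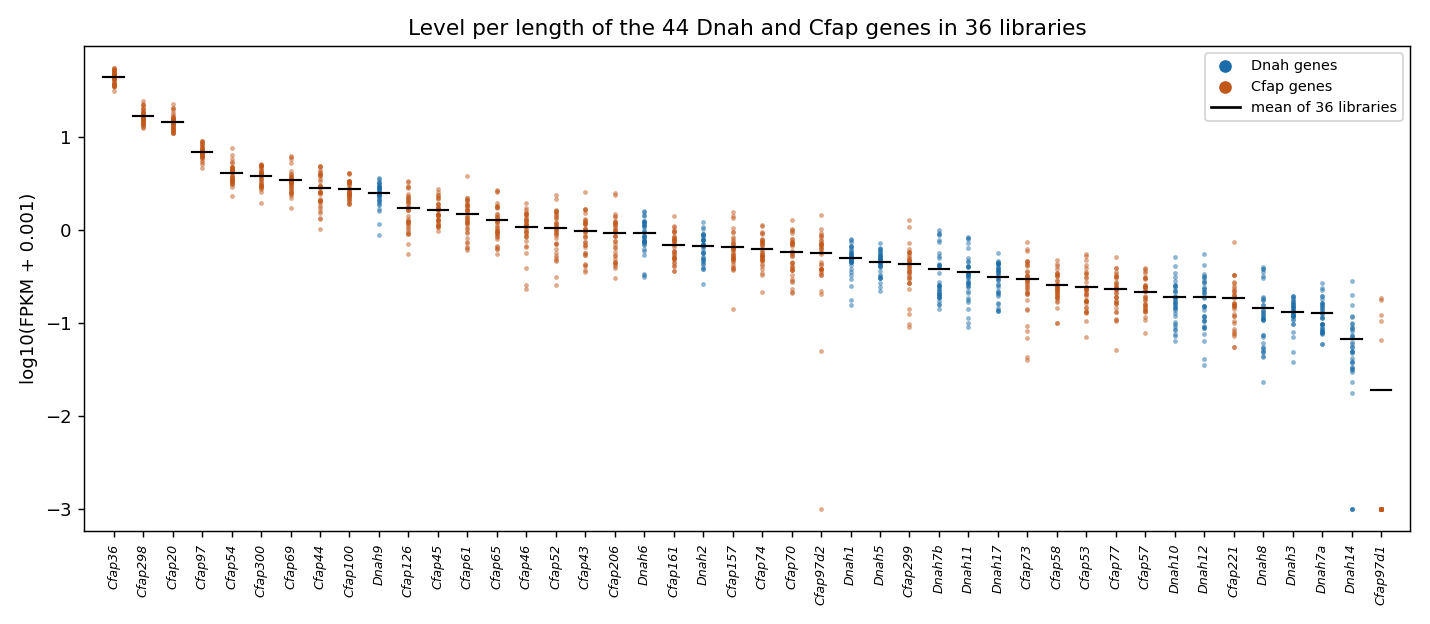
Deposited FPKM of each of the 44 genes (y axis, log10 of FPKM plus 0.001) in every library, ordered by mean, with Dnah genes in blue and Cfap genes in orange and the mean of 36 libraries as a line. Cfap36, Cfap298, Cfap20 and Cfap97 stand above the rest, and points at the bottom edge are libraries at 0.

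Library depth ranged from 6493512 to 35232515 reads counted to genes. The hippocampal neuron markers summed to between 4218 and 7148 CPM (counts scaled to library size) in every library, and all 9 were detected. The 11 ependymal markers summed to between 13.5 and 40.7 CPM, and the 18 choroid plexus markers to between 54.8 and 3857 CPM. Within groups, too, the choroid plexus list varied by a larger factor than the neuronal list. In A/J males 1 to 3, for example, it summed to 1490, 81.6 and 788 CPM, and the neuronal list to 5194.5, 5813 and 5500 CPM. The neuronal sum also differed between strains, with a mean of 6829 CPM in 129S1/SvImJ, against 4880 to 5632 CPM in the others. In C57BL/6J males 1 and 2 the pituitary markers summed to 16.7 and 76.5 CPM, against at most 2.21 in the others. In DBA/1J male 3 the astrocyte markers summed to 2243 CPM, against at most 1493. In PWD/Ph female 1 the striatum markers summed to 109 CPM, against at most 76.3. In bulk tissue, fewer cells of a type and less RNA per cell cannot be told apart.

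Replicates of a group differed more in these genes than in most genes. The biological coefficient of variation (edgeR's estimate of the spread between animals of a group, beyond counting error) had a median of 22.9% over the 39 genes tested, against 10.9% over all 19702 genes tested. It lay above edgeR's trend for the gene's level in 26 of the 39 (66.7%), against 32.0% of all genes. The smallest spread was that of Cfap20, at 6.69%, Cfap298, at 6.85%, and Cfap36, at 7.89%. The largest was that of Cfap43, at 44.5%, Cfap53, at 43.3%, and Cfap52, at 41.9%. CFAP43 anchors inner dynein arms, and CFAP52 and CFAP53 line the inside of the doublets.

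In single libraries many of these genes were high together. For each group of 3, the library in which most of the 39 genes had their highest value was the one with the most Ttr, the choroid plexus gene for transthyretin, in 10 of 12 groups. The exceptions were 129S1/SvImJ females and PWD/Ph females. In A/J males, 28 of the 39 genes (71.8%) were highest in male 1, where all genes tested were highest in 30.6% of cases, and Ttr there was 1203 CPM, against 24.7 and 606 CPM in males 2 and 3. In A/J females, 28 genes were highest in female 2, as were 34.7% of all genes tested, with Ttr at 1732 CPM against 19.7 and 63.9 CPM. In DBA/2J females, 27 genes were highest in female 1, as were 35.4% of all genes tested, with Ttr at 2866 CPM against 1628 and 1363 CPM. Female 1 was also the deepest of the 3, with 18695917 counts against 7422602 and 6493512. The gap was smaller in 129S1/SvImJ males, where 19 genes (48.7%) were highest in male 2, against 39.6% of all genes tested. The part of choroid plexus or ependymal tissue in these differences was not tested.

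Taken gene by gene, the highest library was the one with the most Ttr in a median of 7 of the 12 groups over the 39 genes and of 4 over all genes tested. It was so in 8 or more groups for 15 of the 39 (38.5%), against 4.42% of all genes; this count was chosen after its values were seen. Cfap126, Cfap43 and Dnah6 matched in 11 groups each. Cfap44, Cfap65 and Dnah11 matched in 10. At the other end Cfap97, Cfap298, Dnah8 and Dnah17 matched in 3 groups, and 7 genes, Cfap36, Cfap57, Cfap73, Cfap100, Cfap300, Dnah1 and Dnah7b, in 4. Foxj1 itself, at 2.64 to 16.5 CPM, marked the same library as the genes did in 6 of 12 groups. Gene by gene, the highest library was the one with the most Foxj1 in a median of 5 groups, against 4 over all genes. It was so in 8 or more groups for 4 of the 39 (10.3%), against 2.78% of all genes.

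**Figure D2:**
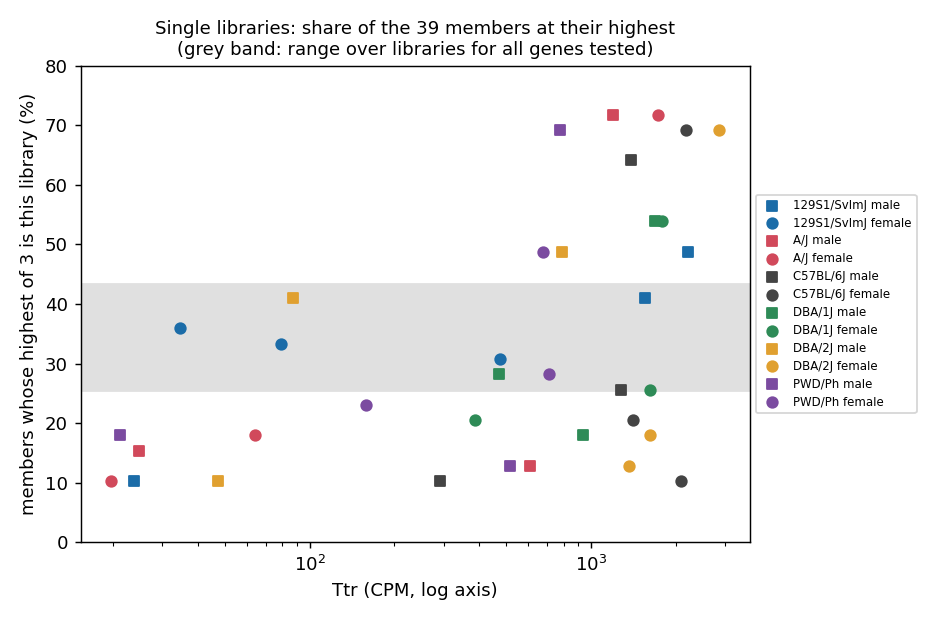
Share of the 39 genes tested whose highest value among the 3 libraries of a group was in the library shown (y axis, percent) against its Ttr level (x axis, CPM, log axis); colours are strains, squares males and circles females. The grey band spans the same share for all genes tested, and each of the 6 libraries with the highest shares, from 64.1% to 71.8%, held at least 778 CPM of Ttr.

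Between strains, 30 of the 39 genes differed at an edgeR adjusted p below 0.05, against 92.0% of all genes tested. The share was thus below that of all genes tested. The spread between replicates was also larger in these genes, at a median of 22.9% against 10.9%, and 28 of the 44 lay under 1 FPKM. The part of spread and level in the lower share was not tested. The 5 genes with the smallest p in the test across strains were Dnah7b (edgeR adjusted p = 2.51e-16), Dnah8 (2.35e-11), Cfap36 (5.45e-11), Dnah1 (5.68e-10) and Cfap300 (1.47e-09). Cfap157, Cfap161, Cfap53 and Cfap74 differed in none of the 6 comparisons of a strain with the mean of the other 5. Cfap36, Cfap54, Cfap69, Dnah7a and Dnah7b differed in 5 of the 6.

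**Figure D3:**
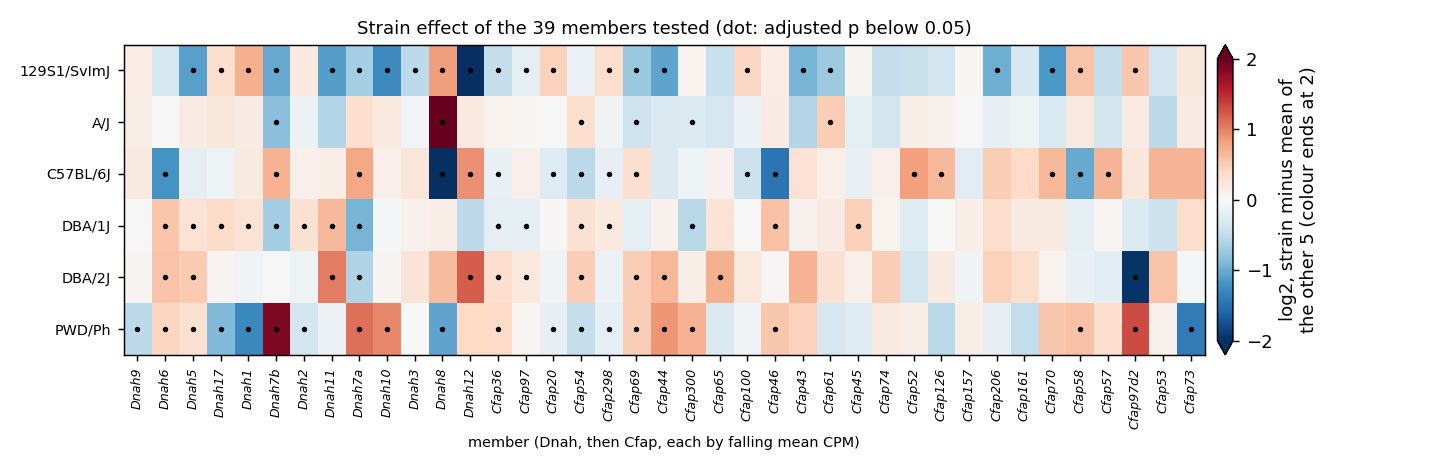
Log2 difference between each strain and the mean of the other 5 (colour, red higher, blue lower, ending at 2) for the 39 genes tested, Dnah then Cfap by falling mean CPM; a dot marks an edgeR adjusted p below 0.05. The darkest cells are Dnah8 in A/J and C57BL/6J, Dnah12 in 129S1/SvImJ, Dnah7b in PWD/Ph and Cfap97d2 in DBA/2J.

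Dnah8, an outer arm motor known mainly from the sperm tail, had the widest range between strains. Its level in A/J was between 3.21 and 5.06 CPM, with a median of 4.01. In C57BL/6J the 3 males had 0, 5 and 0 reads and the 3 females 10, 0 and 4, or a mean of 0.146 ± 0.184 CPM (SD, n = 6). All 6 A/J libraries lay above all 30 others, while C57BL/6J overlapped PWD/Ph, whose libraries ran from 0.182 to 0.952 CPM. 129S1/SvImJ (0.965 to 1.92 CPM), DBA/1J (0.803 to 1.40 CPM) and DBA/2J (0.624 to 2.04 CPM) overlapped one another. Dnah8 was higher in A/J by 2.58 ± 0.21 on the log2 scale (SE, edgeR adjusted p = 1.92e-11), or 6.00-fold. In C57BL/6J it fell by 3.15 ± 0.41 (edgeR adjusted p = 3.46e-07), a value that rests on few reads. Dnah8 lies on chromosome 17 (GRCm38, 30624354 to 30877365, plus strand), and its start overlaps the body of Glo1, on the minus strand, though not its exons. Glo1, a detoxifying enzyme, was also highest in A/J, at 265 ± 24.3 CPM, and lowest in C57BL/6J, at 90.5 ± 8.15 CPM, and PWD/Ph, at 92.1 ± 3.10 CPM. The neighbouring gene Btbd9, which does not overlap Dnah8, was likewise highest in A/J, at 177 ± 8.99 CPM. Btbd9 was lowest in PWD/Ph, at 103 ± 10.3 CPM, followed by C57BL/6J, at 115 ± 6.38 CPM. Whether reads of Glo1 enter the Dnah8 counts, or these genes share a cause, was not tested.

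Dnah7b, a single-headed inner arm motor, was highest in PWD/Ph, where its 6 libraries ran from 11.2 to 14.6 CPM with a median of 13.2. C57BL/6J came next with 4.76 to 8.31 CPM and DBA/2J with 2.81 to 6.30 CPM. In 129S1/SvImJ the range was 2.1 to 2.59 CPM, in A/J 2.19 to 3.24 CPM and in DBA/1J 1.83 to 3.72 CPM. PWD/Ph thus stood apart from every other library, C57BL/6J lay above 129S1/SvImJ, A/J and DBA/1J, and those 3 overlapped. The PWD/Ph difference was 1.87 ± 0.10 on the log2 scale (edgeR adjusted p = 5.70e-17), or 3.65-fold. Dnah7b was lower in A/J by -0.84 ± 0.12 (edgeR adjusted p = 1.20e-06) and in DBA/1J by -0.69 ± 0.12 (1.31e-05).

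Its copy Dnah7a was also highest in PWD/Ph on average, at 3.25 ± 1.15 CPM, and lowest in DBA/1J, at 0.976 ± 0.396 CPM. Its 6 DBA/1J libraries ran from 0.402 to 1.56 CPM and overlapped those of 129S1/SvImJ, DBA/2J and PWD/Ph. Dnah7a was lower in DBA/1J by -0.94 ± 0.21 on the log2 scale (edgeR adjusted p = 4.89e-04). Of the 50-base stretches of Dnah7a transcripts, 38.6% also occur in another gene, 29.4% in Dnah7b, and of those of Dnah7b 30.1% do, most of them (23.6% of its stretches) in Dnah7c, which was not analysed here. How reads were divided among the 3 copies makes the Dnah7a and Dnah7b values uncertain, the PWD/Ph difference of Dnah7b included.

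Dnah1, another inner arm motor, was lowest in PWD/Ph, with 1.68 to 4.29 CPM and a median of 3.09. The lowest library of any other strain was a DBA/2J library with 4.55 CPM, and 129S1/SvImJ was highest with 7.67 to 10.1 CPM. All 6 PWD/Ph libraries therefore lay below the other 30 in CPM. In FPKM they did not, as PWD/Ph female 3 had 0.447 and DBA/2J male 2 had 0.348. The PWD/Ph difference in counts was -1.29 ± 0.12 on the log2 scale (edgeR adjusted p = 1.43e-10). Cfap300, which takes part in assembling dynein arms, was in contrast highest in PWD/Ph, with 10.5 to 12.1 CPM, against at most 9.60 CPM elsewhere. It was higher by 0.70 ± 0.07 (edgeR adjusted p = 1.20e-09), or 1.62-fold. In FPKM its libraries overlapped, with 4.79 in PWD/Ph male 2 and 4.87 in 129S1/SvImJ female 3. Cfap73, whose protein helps fix inner arms, had at most 3 reads in each PWD/Ph library and 0.130 ± 0.117 CPM, against 0.321 CPM on average in the other strains (log2 -1.40 ± 0.50, edgeR adjusted p = 0.0140). Without PWD/Ph male 3 the Cfap73 value was -1.07 with an edgeR adjusted p of 0.0828.

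**Figure D4:**
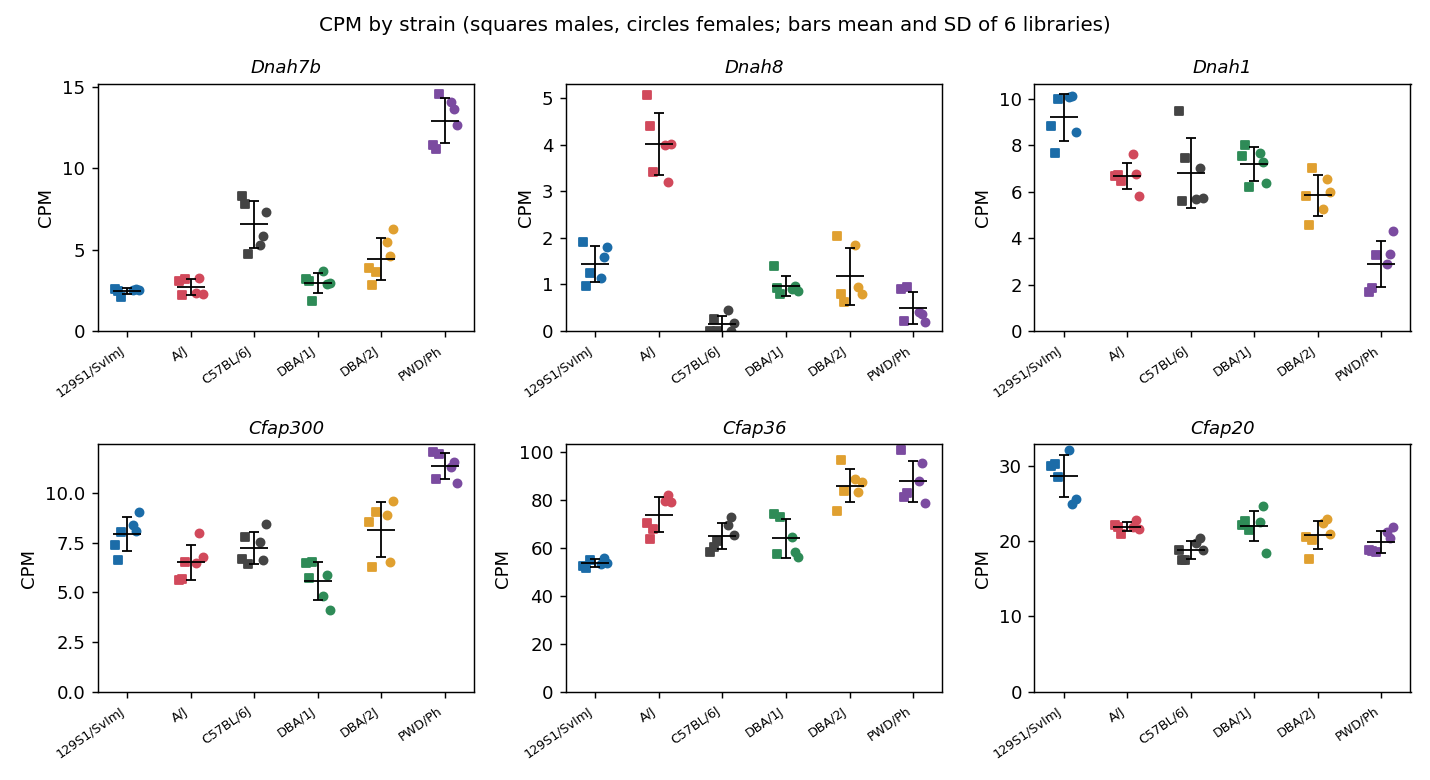
CPM of 6 genes (y axis, from 0) in each library by strain, males as squares and females as circles, with mean and SD of 6 libraries in black. Dnah7b and Cfap300 in PWD/Ph, Dnah8 in A/J and Cfap20 in 129S1/SvImJ lie above all other libraries, and Dnah1 in PWD/Ph and Cfap36 in 129S1/SvImJ lie below them.

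In PWD/Ph, 21 of the 39 genes differed from the mean of the other strains, against 70.5% of all genes tested. Of these, 12 were higher (34.4% of all genes were) and 9 lower (7102 of the 19702 genes were). For 3 genes the PWD/Ph libraries did not overlap the others in CPM (Dnah7b, Cfap300 and Dnah1), where 7.56% of all genes were so. The median log2 difference of the 39 was 0.09, and of all genes -0.02. Foxj1 in PWD/Ph was 5.24 ± 1.99 CPM, the lowest mean of the 6 strains, and choroid plexus markers there summed to between 54.8 and 1051 CPM.

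In 129S1/SvImJ, 23 of the 39 differed, against 67.4% of all genes tested, with 15 lower (32.1% of all genes) and 8 higher (35.3%). The median log2 difference was -0.36, against 0.01 over all genes. Of the inner arm motors, Dnah3, Dnah7a, Dnah7b, Dnah10 and Dnah12 were lower, Dnah1 was higher (log2 0.72 ± 0.10, edgeR adjusted p = 1.38e-07), and Dnah2 and Dnah6 did not pass the test. Dnah12 had between 1 and 10 reads per library and 0.218 ± 0.159 CPM, against 1.06 CPM on average elsewhere (log2 -2.22 ± 0.38, edgeR adjusted p = 5.94e-06). Dnah10 ran from 0.245 to 2.13 CPM with a median of 0.648 and overlapped the other strains (log2 -1.27 ± 0.30, edgeR adjusted p = 4.09e-04). Dnah5, the outer arm motor most often mutated in human primary ciliary dyskinesia, ran from 2.34 to 4.64 CPM (log2 -1.09 ± 0.12, edgeR adjusted p = 1.61e-09). The choroid plexus markers in 129S1/SvImJ had the lowest median sum of the 6 strains, 355 CPM, against 461 to 1825 CPM in the others, although their range of 67.4 to 2483 CPM overlapped all of them. By mean, that sum, 861 CPM, was above those of A/J, at 779 CPM, and PWD/Ph, at 640 CPM. Ttr, a gene of that list and so not separate from its sum, had its lowest median in 129S1/SvImJ, 278 CPM. Its mean there, 730 CPM, was above those of A/J, at 608 CPM, and PWD/Ph, at 476 CPM. The ependymal gene Ccdc153 had its lowest mean in 129S1/SvImJ, 1.16 ± 0.468 CPM. The ependymal genes Foxj1 and Tmem212 had theirs in PWD/Ph, at 5.24 and 0.475 CPM, against 7.39 and 0.787 CPM in 129S1/SvImJ. The ependymal markers summed to a median of 22.6 CPM, above PWD/Ph at 19.4 CPM and below the rest. By mean, the ependymal sum, 25.0 CPM, was above those of PWD/Ph, at 20.5 CPM, and DBA/2J, at 24.6 CPM. The part of these markers in the lower median of the 39 genes was not tested.

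Cfap36 and Cfap20, whose spread between replicates was among the smallest, both differed in 129S1/SvImJ, with narrow gaps between its libraries and the rest. Cfap36 ran from 51.6 to 55.9 CPM, below the other 30 libraries, of which the lowest had 56.1 CPM (log2 -0.47 ± 0.05, edgeR adjusted p = 3.67e-09). In FPKM the Cfap36 libraries overlapped, with 38.0 in 129S1/SvImJ male 3 and 34.3 in C57BL/6J male 2. Cfap20 ran from 24.9 to 32.1 CPM, above the other 30, of which the highest had 24.6 CPM (log2 0.47 ± 0.05, edgeR adjusted p = 4.26e-10). These 2 genes were the only ones whose 129S1/SvImJ libraries did not overlap the rest in CPM, where 4.25% of all genes were so.

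In A/J, 6 of the 39 differed, against 33.2% of all genes tested, with 3 higher (18.9% of all genes) and 3 lower (14.4%). Dnah8, above, was the 1 gene whose A/J libraries did not overlap the others (0.513% of all genes). Cfap69, a protein of the central pair that is also found in olfactory cilia, was lower, at 8.48 ± 1.60 CPM (log2 -0.41 ± 0.10, edgeR adjusted p = 0.00229). Cfap61, a radial spoke protein, was higher, at 3.34 ± 0.936 CPM (log2 0.49 ± 0.14, edgeR adjusted p = 0.00672). Without A/J female 2, the library of that group with the most Ttr, the Cfap61 value was 0.32 with an edgeR adjusted p of 0.0987.

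In C57BL/6J, 17 of the 39 differed, against 34.7% of all genes tested, with 8 higher (21.1% of all genes) and 9 lower (13.6%), and none whose libraries did not overlap the others (0.690% of all genes). Cfap46, a protein of the central pair, ran from 0.495 to 1.76 CPM against a mean of 3.29 CPM elsewhere (log2 -1.46 ± 0.21, edgeR adjusted p = 1.63e-06). Dnah6, an inner arm motor, ran from 2.14 to 8.2 CPM against a mean of 12.0 CPM (log2 -1.20 ± 0.19, edgeR adjusted p = 1.04e-05). Cfap58, known from the sperm tail, had 3 to 9 reads per library (log2 -1.01 ± 0.21, edgeR adjusted p = 2.97e-04). The count of 17 fell to 10 without female 3 and to 11 without male 1. It was 7 without the 3 libraries that stood apart in pituitary or astrocyte genes, which leaves 1 C57BL/6J male, assumed to vary like the other groups.

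In DBA/1J, 15 of the 39 differed, against 53.4% of all genes tested, with 10 higher (28.5% of all genes) and 5 lower (24.9%), and none without overlap (0.665% of all genes). Cfap46 was higher, at 3.86 ± 0.692 CPM (log2 0.58 ± 0.16, edgeR adjusted p = 0.00376). Dnah11, an outer arm motor, was higher, at 3.13 ± 1.22 CPM (log2 0.65 ± 0.22, edgeR adjusted p = 0.0117). For Dnah11 the edgeR adjusted p was 0.0827 without female 3 and 0.0789 without male 2, and in that strain these are the 2 libraries with the most Ttr, at 1792 and 1692 CPM. With limma on log2 of FPKM plus 0.1, the limma adjusted p was 0.122 for Cfap46 and 0.204 for Dnah11.

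In DBA/2J, 12 of the 39 differed, against 49.5% of all genes tested, with 10 higher (25.1% of all genes) and 2 lower (24.4%), and none without overlap (0.766% of all genes). The median log2 difference was 0.19, against -0.01 over all genes. Cfap97d2 was lower, with 0 to 6 reads and 0.126 ± 0.141 CPM against 0.551 CPM elsewhere (log2 -1.97 ± 0.39, edgeR adjusted p = 1.11e-04). Dnah11 was higher, at 3.80 ± 2.22 CPM (log2 1.02 ± 0.23, edgeR adjusted p = 4.85e-04), as was Dnah12, at 1.48 ± 0.715 CPM (log2 1.22 ± 0.30, edgeR adjusted p = 0.00102). Cfap65, a central pair protein needed for sperm motility, ran from 4.68 to 16.6 CPM (log2 0.71 ± 0.21, edgeR adjusted p = 0.00507). Without male 3 the Cfap65 value was 0.56 with an edgeR adjusted p of 0.0563. The choroid plexus markers summed to between 104 and 3857 CPM in this strain, and the highest DBA/2J values of Dnah11 and Cfap43, 8.12 and 8.83 CPM, both came from female 1, the library with that highest sum.

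Between the sexes, averaged over the strains, 0 of the 39 genes differed by edgeR's test, against 0.239% of all genes tested. At an unadjusted p below 0.05 there was 1, and DESeq2 also called 0. Within strains, edgeR called 3 genes in A/J, where 5.32% of all genes tested were called, and 1 in C57BL/6J, where 0.279% were. It called 0 in 129S1/SvImJ (0.102% of all genes), DBA/1J (0.0609%), DBA/2J (0.0508%) and PWD/Ph (0.122%). At an unadjusted p below 0.05 these 4 strains had 4, 3, 15 and 2 genes, in that order, and DESeq2 called 0, 0, 1 and 0.

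In A/J, Cfap100, whose protein fixes inner arms with that of Cfap73, had 6.57, 6.03 and 6.29 CPM in males and 3.41, 4.08 and 4.30 CPM in females. All females lay below all males (log2 female minus male -0.68 ± 0.16, edgeR adjusted p = 0.0119). Cfap54, a central pair protein of ependymal cilia, had 33.2, 22.5 and 28.4 CPM in males and 14.5, 19.8 and 17.3 CPM in females, again without overlap (log2 -0.70 ± 0.18, edgeR adjusted p = 0.0179). Cfap58 went the other way, with 0.411, 0.528 and 0.462 CPM in males and 0.733, 1.15 and 1.18 CPM in females (log2 1.11 ± 0.31, edgeR adjusted p = 0.0288). Each of these calls was lost when single A/J libraries were left out: without male 1 the edgeR adjusted p was 0.0679 for Cfap100, 0.145 for Cfap54 and 0.147 for Cfap58. With the other libraries in turn, Cfap100 also lost its call without female 1 (0.0966), and Cfap54 without female 1 (0.126), female 3 (0.0608) and male 3 (0.0516). Cfap58 did so without every other A/J library but female 1, at 0.0549 to 0.120. With limma on log2 of FPKM plus 0.1, the limma adjusted p was 0.262 for Cfap100 and 0.330 for Cfap58, and DESeq2 gave an adjusted p of 0.0531 for Cfap58.

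In C57BL/6J the called gene was Dnah5, with 10.2, 6.94 and 7.03 CPM in males and 3.87, 3.96 and 4.23 CPM in females. In the other strains its female and male libraries overlapped, with log2 differences of 0.39 ± 0.21 in 129S1/SvImJ, -0.20 ± 0.19 in A/J, -0.04 ± 0.19 in DBA/1J, 0.20 ± 0.20 in DBA/2J and -0.25 ± 0.20 in PWD/Ph. Dnah5 was the 1 gene of the 39 whose sex effect differed between strains (edgeR adjusted p = 0.0437), where 1.64% of all genes tested were called. That call was lost in 24 of the 36 fits that left out a single library, at edgeR adjusted p of up to 0.124. Within C57BL/6J the edgeR adjusted p was 0.167 without male 1, 0.122 without female 1 and 0.125 without female 2. With limma on log2 of FPKM plus 0.1 the limma adjusted p was 0.235. Without C57BL/6J males 1 and 2 and DBA/1J male 3 the edgeR adjusted p was 0.450, with a log2 difference of -0.80. Pituitary markers were at 16.7 and 76.5 CPM in males 1 and 2 and at most 2.21 CPM in male 3 and the females, and their part in the Dnah5 result was not tested.

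In DBA/2J, 36 of the 39 genes had a positive log2 difference, female minus male, against 48.0% of all genes tested. The median was 0.63, against -0.01 over all genes. Cfap69, with the smallest p, had a log2 difference of 0.76 ± 0.19 (edgeR adjusted p = 0.118), and no single gene passed the test. Males had 47.4 to 788 CPM of Ttr and females 1363 to 2866 CPM, without overlap. The choroid plexus markers, which include Ttr, summed to at most 1069 CPM in males and at least 1892 CPM in females. The 3 DBA/2J libraries male 2, female 2 and female 3 were also the shallowest of the series. The part of these differences in the direction shared by the 36 genes was not tested.

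**Figure D5:**
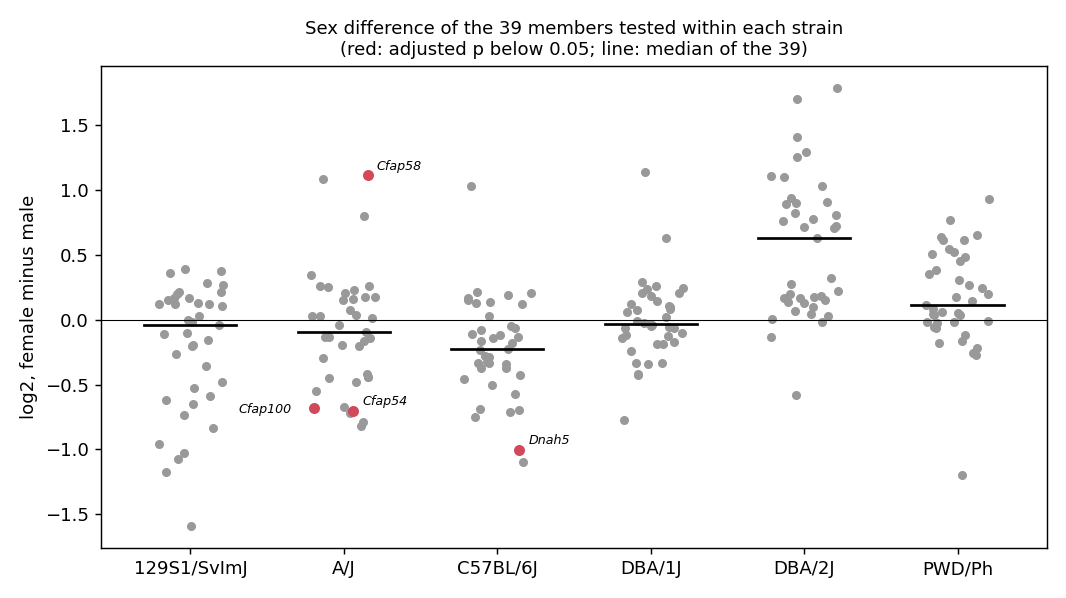
Log2 difference, female minus male, of the 39 genes tested within each strain (points, spread sideways for clarity), with the median as a line and genes past an edgeR adjusted p of 0.05 in red and named. The DBA/2J points lie mostly above 0, with a median of 0.63, and none is red.

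Other genes of the motile cilium, taken from lists of its parts, differed between strains in 11 of 12 dynein arm intermediate, light and docking chains tested, 10 of 11 assembly factors, 12 of 13 radial spoke and central pair genes, 9 of 9 genes of the nexin-dynein regulatory complex and the inner arm rulers, 9 of 13 tektins and inner microtubule proteins and 10 of 11 transcription factors of multiciliated cells. These shares stand beside 92.0% of all genes tested. In PWD/Ph the transcription factors had 6 of 11 lower, where 7102 of the 19702 genes tested were, and 2 higher, where 34.4% of all genes were, with a median log2 difference of -0.82. The other lists of motile cilium genes also had negative medians there: -0.52 for the tektins and inner microtubule proteins, -0.33 for the assembly factors, -0.31 for the regulatory complex and rulers, -0.19 for the spokes and central pair and -0.11 for the arm chains. The list of cytoplasmic dynein and intraflagellar transport genes, which is not particular to motile cilia, had a median of -0.09 there, with 12 of 24 lower and 5 higher. The median of the 39 Dnah and Cfap genes was 0.09.

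Among the transcription factors, Trp73, which acts above FOXJ1 in ependymal cells, was lower in PWD/Ph, at 1.45 ± 0.431 CPM (log2 -1.72). Ccno, needed to multiply centrioles, was lower there too, at 0.532 ± 0.389 CPM (log2 -1.69). Rfx3 was higher, at 201 ± 32.1 CPM (log2 0.51), and Rfx1 lower, at 9.06 ± 3.07 CPM (log2 -0.82). All 4 values had an edgeR adjusted p below 0.05. Of the spoke and central pair genes, Rsph1 was higher in PWD/Ph, at 18.0 ± 3.70 CPM (log2 2.05), and so was Spef2, at 4.83 ± 1.25 CPM (log2 1.31). Rsph3a and Rsph3b, near-identical copies whose reads may be divided between them, were both lower (log2 -0.40 and -0.24).

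Of the assembly factors in PWD/Ph, Lrrc6 was higher, at 6.12 ± 1.02 CPM (log2 1.55), while Dnaaf2 (log2 -0.86), Ccdc103 (log2 -1.64) and Zmynd10 (log2 -0.42) were lower. In the regulatory complex, Ccdc65 was lower in PWD/Ph, at 1.52 ± 0.478 CPM (log2 -1.77), as was Drc3 (log2 -0.76), and Drc1 was higher in 129S1/SvImJ, at 13.9 ± 0.803 CPM (log2 1.01). Ccdc39, a ruler that spaces inner arms, was higher in DBA/2J, at 47.8 ± 8.01 CPM (log2 0.82). The intermediate chain gene Wdr78 was higher in PWD/Ph (log2 0.95) and Dnaic1 lower (log2 -1.05), and Dnal1 was higher in DBA/2J (log2 0.23), as was Efcab1 (log2 0.30). Tekt5 was lower in PWD/Ph, at 0.634 ± 0.32 CPM (log2 -2.41), and in A/J (log2 -1.54), Mns1 was lower in C57BL/6J (log2 -0.94) and Enkur in 129S1/SvImJ (log2 -0.62). All of these passed an edgeR adjusted p of 0.05.

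Cytoplasmic dynein and intraflagellar transport genes, which serve primary cilia and axons as well, differed between strains in 23 of 24, near the 92.0% of all genes tested. Dync2h1, the motor of retrograde transport in cilia, was at 59.9 ± 6.27 CPM in PWD/Ph (log2 0.56) and at 27.2 ± 5.68 CPM in 129S1/SvImJ (log2 -0.82). Kif17 was higher in 129S1/SvImJ (log2 0.81), Ift46 was lower in PWD/Ph (log2 -0.51) and Ift122 was lower in both DBA/2J (log2 -0.39) and PWD/Ph (log2 -0.36), all past the same threshold. In the DBA/2J sex comparison the 39 Dnah and Cfap genes had a median log2 difference, female minus male, of 0.63. The other lists of motile cilium genes also had positive medians: 0.58 for the arm chains, 0.51 for the tektins and inner microtubule proteins, 0.39 for the spokes and central pair, 0.35 for the assembly factors, 0.34 for the regulatory complex and rulers and 0.17 for the transcription factors. The cytoplasmic dynein and transport list had -0.01, and in none of these lists did a gene pass edgeR's test.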

How the data were processed

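Hippocampal RNA of 36 mice was sequenced, and the tables of counts and FPKM per gene were deposited by the authors, 1 table per strain. Both the count and the FPKM values are the authors' own, per the file headers. The submitters' processing notes name Trimmomatic 0.32, TopHat2 2.0.13, SAMtools, DESeq2 1.8.1, Cufflinks 2.1.1 and GRCm38. The counting tool and its strand setting are not stated in the labels or headers, so genes that overlap another gene's exons (22 of the 44) or share sequence with it are uncertain, and how reads of other strains aligned to GRCm38 was not examined. Symbols came from GENCODE M21 (35449 of 37315 identifiers matched).

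From the deposited counts, edgeR 4.0.16 was used with TMM scaling, its filter on low counts (19702 genes kept) and quasi-likelihood tests on 12 group means, with Benjamini-Hochberg adjustment over all genes tested and a threshold of 0.05. The code was tested on simulated data. Totals ranged from 6493512 to 35232515 counts, and genes with few reads are imprecise for that reason. CPM here uses the TMM-scaled totals. Standard errors follow from the F statistic. Replicates are separate animals. Between-gene levels use FPKM. Lone values named in the text follow a rule: up to 4 genes per strain comparison by size of change, those whose libraries do not overlap first, up to 4 per sex comparison by p, the 5 smallest p across strains, the highest and lowest 4 in FPKM, the 3 highest and lowest in spread, and up to 4 per list of other genes by p across strains. Dnah5 in 129S1/SvImJ, Dnah9, Cfap69 in the DBA/2J sex comparison and the genes counted against Ttr fall outside it and were chosen after their values were seen. The members and lists were chosen with earlier results of these data known. Alternatives tried were DESeq2's size factors and test (DESeq2 1.42.0), other filters, limma 3.58.1 on log2 of FPKM plus 0.1 or 1, a replicate block, single strains and leaving out libraries.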

Additional observations from a re-analysis of the deposited data

Results flagged for a closer look

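Within a strain's 6 libraries, 11 of 180 combinations of a gene (or the summed level) and a strain had 1 library far from the rest by Dixon's test, where chance gives about 1 in 20. Cfap100 and Cfap58 were highest in DBA/2J female 2, at 7.78 CPM (others 5.22 to 6.14) and 0.956 CPM (others 0.401 to 0.562). Cfap69 was highest in PWD/Ph female 1, the library with the highest striatum marker sum, at 21 CPM (others 12.5 to 13.7). Dnah10 was highest in 129S1/SvImJ male 2 at 2.13 CPM (others 0.245 to 0.784). Dnah11 was highest in DBA/2J female 1 at 8.12 CPM (others 2.01 to 3.96), and Dnah12 in PWD/Ph female 3 at 1.91 CPM (others 0.550 to 1.01). Dnah8 was highest in DBA/1J male 1 at 1.40 CPM (others 0.803 to 0.976), and Dnah7b lowest in 129S1/SvImJ male 3 at 2.1 CPM (others 2.44 to 2.59). Of the genes too low to test, Dnah14 stood at 0.187 CPM in DBA/2J male 3, and Cfap97d1 at 0.0456 CPM in A/J male 1 and 0.1 CPM in PWD/Ph female 1, a single read in each of these 2 libraries and 0 in the rest of the strain.

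The sex effect of Dnah5 differed between strains by edgeR's test of the difference itself (edgeR adjusted p = 0.0437), a call that was lost in 24 of the 36 fits that left out a single library.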

How the results depend on the processing

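The 15 counts of genes called stayed within 1.5 times their main value in most alternatives. For C57BL/6J against the other strains the count of 17 was 7 without the 3 libraries that stand apart in pituitary or astrocyte genes (a choice made after seeing the data), and 10 to 17 as each library was left out. For DBA/1J the count of 15 was 7 with limma on FPKM plus 0.1 and 8 with plus 1. For the sexes in A/J the count of 3 was 7 with the strain's own libraries alone and 0 to 4 leaving out each library. For the sexes in C57BL/6J the count of 1 was 0 with limma at either offset and without those 3 libraries, and 0 to 1 leaving out each library. For the sexes in DBA/2J the count of 0 was 1 with DESeq2's test, 1 with limma at either offset, 2 with no low-count filter and 4 with the strain's own libraries alone. For the sexes in PWD/Ph it was 0 to 1 leaving out each library. For sex effects that differ between strains the count of 1 was 5 with DESeq2's test, 5 with no low-count filter, 0 with limma at either offset, 0 without those 3 libraries, and 0 to 3 leaving out each library. The cause was not tested. With RefSeq symbols (47 genes in place of 44), and without the 3 shallow DBA/2J libraries (a choice made after seeing the data), all counts stayed within 1.5 times. Of 1532 values of named genes under alternatives, 1473 kept the call, and 59 lost it. Where the test has a direction, 0 changed it. For each pair of a named gene and a comparison, 36 of these values came from leaving out 1 library, mostly of another strain. The lost calls fell on 10 of the 34 pairs, among them every pair from a sex comparison. A change of offset understates low genes by construction.

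With the replicate number as a block, the counts were 29 across strains (30 without), 23 for 129S1/SvImJ, 6 for A/J, 16 for C57BL/6J, 14 for DBA/1J, 13 for DBA/2J and 21 for PWD/Ph, and 0 for the average sex effect; within strains 3 genes in A/J and 1 in C57BL/6J were called. The labels do not say that the numbers pair animals, and of 18 pairs of same-numbered males and females only 3 had a correlation of their deviations over 0.1 (range -0.344 to 0.362).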
